A study of Homo sapiens with 38 samples.

Results

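BCL2, BCL2L1, BCL2L2, MCL1 and BCL2A1 are the anti-apoptotic genes of the BCL2 family, whose proteins hold back cell death. They were chosen by name and matched by Ensembl identifier, 5 of the 18011 genes in the count table. The RNA came from 6 human cell lines grown from diffuse large B-cell lymphomas, OCILY1, PFEIFFER, SUDHL4, SUDHL6, TOLEDO and WSUDLCL2, with no genetic change introduced. Exposure to pracinostat, to vorinostat or to the solvent DMSO lasted 6 h or 14 days. The 2 drugs, both hydroxamic acids, block histone deacetylases, and the labels give no dose. The 6 h groups held 6 pracinostat, 5 vorinostat and 6 DMSO libraries, SUDHL6 with vorinostat not being analysed here. The 14 day groups held 5 libraries each of pracinostat, vorinostat, DMSOP and DMSOV, without SUDHL6. DMSOP and DMSOV are solvent sets that were read, from their last letter in the titles, as the controls of pracinostat and of vorinostat. At 6 h the titles say DMSO only, while the headers of the deposited log2 table name this library DMSOP for PFEIFFER and TOLEDO and DMSOV for the other 4 lines, so drug and solvent set do not match there in every line. Every treatment and time has 1 library of a line, which makes lines the replicates. The labels do not tell if a line's libraries were grown apart.

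The proteins of these genes sit on the outer membrane of mitochondria and bind 2 kinds of partner. They hold the effectors BAX and BAK, which open that membrane once released and so start the caspases. They also catch the BH3-only proteins, such as BIM (gene BCL2L11), PUMA (BBC3) and NOXA (PMAIP1), which report damage or lost growth signals and displace the effectors. BCL2 is best known from follicular and germinal-centre lymphomas, in which a translocation places it beside the immunoglobulin heavy chain locus, and its protein is the target of venetoclax. BCL2L1 encodes BCL-XL, BCL2L2 encodes BCL-W, MCL1 encodes a short-lived protein on which many B cells depend, and BCL2A1 encodes BFL-1, a known target of the transcription factor NF-kB.

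Library totals ran from 3188528 to 8919622 counts, and levels are given as CPM, counts per library total in the usual unit, scaled by the trimmed mean of M-values (TMM). A library's count of 0 allows up to 3 counts, 0.336 to 0.941 CPM, and this floor covers counting error only. The label of B lineage cells was checked with 8 markers, all in the table, whose summed level was 1967 to 9661 CPM in each library. Of 8 T and NK cell markers 4 were in the table, with sums of 0 to 5.16 CPM, and of 8 myeloid markers 3, with sums of 0 to 37.0 CPM. Epithelial markers (3 of 4 in the table) summed to 0 to 282 CPM, nearly all of it EPCAM, and fibroblast and endothelial markers (COL1A1 and PECAM1 of 5) to 0 to 85.1 CPM. In bulk RNA, fewer cells of a kind and less RNA per cell cannot be told apart. Genes were tested with edgeR's quasi-likelihood test with the line as block, and called at a Benjamini-Hochberg adjusted p under 0.05 over all genes. All 5 members passed the filter on low counts in each test.

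On GRCh38, BCL2 (ENSG00000171791) lies on the minus strand of chromosome 18 from 63123346 to 63320128, and BCL2L1 (ENSG00000171552) on the minus strand of chromosome 20 from 31664452 to 31723989. BCL2L2 (ENSG00000129473) lies on the plus strand of chromosome 14 from 23298790 to 23311759, and MCL1 (ENSG00000143384) on the minus strand of chromosome 1 from 150574551 to 150579738. BCL2A1 (ENSG00000140379) spans 79960889 to 79971446 on the minus strand of chromosome 15. Counts are per gene, so the short, death-promoting splice forms of BCL2L1 and MCL1 were counted with the long ones. Exons of BCL2L1 overlap ABALON on the other strand, those of BCL2L2 overlap PPP1R3E on the other strand and the read-through gene BCL2L2-PABPN1, and those of MCL1 overlap ADAMTSL4-AS1 on the same strand. The strand setting of the counting is not given in the sources used here, so levels of these 3 genes are uncertain where reads fall on shared bases.

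RefSeq windows (GRCh38.p14) before the start sites were in hand for BCL2, BCL2L1 and BCL2A1, and not for MCL1 and BCL2L2. The sequences below are shown because BCL2L1 and BCL2A1 hold the element TATAAA before a RefSeq start site. In BCL2L1 this is the upstream one of its 2 starts. In neither gene does a match lie next to the start. Whether these letters work as a promoter element was not tested, and the label TATA below names the letters only. The 250 bases before the RefSeq start of BCL2 do not hold TATAAA. The response to the drugs at 14 days differed between lines for BCL2L1 and BCL2A1, and for MCL1, whose window was not in hand. A link between the element and the response was not tested. The BCL2L1 stretch is the part upstream of annotated exons, chr20:31723990-31724213, and those of BCL2A1 are chr15:79971249-79971278 and chr15:79971346-79971375, all minus strand. GENCODE 29 starts BCL2 and BCL2A1 further upstream, so the whole BCL2 window and both BCL2A1 stretches lie within an annotated exon of their own gene. Capitals mark TATAAA or, in the last line, a match to the STAT motif TTCNNNGAA.
BCL2L1 upstream: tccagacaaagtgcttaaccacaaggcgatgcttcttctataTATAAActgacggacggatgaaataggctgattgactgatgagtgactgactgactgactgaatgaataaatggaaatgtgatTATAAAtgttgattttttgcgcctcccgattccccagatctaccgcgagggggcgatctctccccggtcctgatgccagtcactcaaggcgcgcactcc
BCL2A1 TATA: gaggaaggatatTATAAAgtgatgcaaaca
BCL2A1 STAT: gaggaagtggcTTCTCTGAAacattttcct
TATAAA was found in 10.7% of 35116 such windows on either strand, and TTCNNNGAA in 6.57%. The last stretch opens with GAGGAAGT, the PU.1 core, which is held by 2.17% of windows and does not overlap the STAT match. The NF-kB core (1.73% of windows), the GC box GGGCGG (42.6%) and CCAAT (32.0%) were not in the windows of the 3 genes. The GC content of the BCL2 window was 70.0%, that of BCL2L1 at its upstream start 50.0% and that of BCL2A1 38.8%, against a median of 58.0% over all windows. A match describes these letters only.

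Without drug, all 5 transcripts differed between the lines, in a test on which 90.7% of all genes were called. The n = 3 of a line are its DMSO library at 6 h and its DMSOP and DMSOV libraries at 14 days. SUDHL6 has the 6 h library only. SDs thus span both times, and p-values measure the spread between libraries of a line, which may share a culture. Between 2 single lines 50.1% of genes were called over the 15 pairs together. BCL2 had the highest mean in OCILY1 (595 ± 47.0 CPM, SD, n = 3) and TOLEDO (567 ± 38.8 CPM), which did not differ beyond their spread (log2 difference 0.08, adjusted p = 0.662, 61.5% of genes called between this pair). It was lower in WSUDLCL2 (341 ± 112 CPM), SUDHL4 (230.1 ± 11.9 CPM) and SUDHL6 (177 CPM, n = 1), and lowest in PFEIFFER (101 ± 2.61 CPM). SUDHL4 and SUDHL6 did not differ beyond their spread (adjusted p = 0.349), and the other neighbours in this order did.

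BCL2L1 was high in 2 lines, PFEIFFER (118 ± 47.8 CPM, n = 3) and TOLEDO (82.6 ± 4.17 CPM), whose difference missed the threshold (adjusted p = 0.0536, 63.9% of genes called). SUDHL4, OCILY1, WSUDLCL2 and SUDHL6 followed with 33.2, 31.1, 30.0 and 21.8 CPM, and no pair among these 4 was called. Per kilobase of exon BCL2L2 was the lowest of the 5 in every line but TOLEDO. It had 15.3 CPM in PFEIFFER, 14.6 in WSUDLCL2, 8.03 in TOLEDO and 3.09 in OCILY1 on average. In SUDHL4 and SUDHL6 it rested on 1 to 8 counts per library.

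MCL1 was the most even member. SUDHL6 (469 CPM, n = 1) and PFEIFFER (455 ± 13.9 CPM) led, and WSUDLCL2 (388 ± 41.7), TOLEDO (365 ± 15.1) and SUDHL4 (362 ± 2.51) followed without a called difference among them. SUDHL6 lay 0.38 log2 units above WSUDLCL2, which was not called. PFEIFFER exceeded WSUDLCL2 narrowly (0.27, adjusted p = 0.0442, 58.6% of genes called between this pair). OCILY1 (197 ± 30.3 CPM) was lowest. OCILY1, highest for BCL2, was thus lowest for MCL1, and PFEIFFER, lowest for BCL2, was among the highest. BCL2A1 was the most uneven. PFEIFFER measured 379, 331 and 317 CPM in its DMSO libraries, WSUDLCL2 8.98 to 18.0 CPM, SUDHL4 4.93 to 8.04, SUDHL6 5.90, OCILY1 1.07 to 2.49, and TOLEDO 0 to 0.165 CPM, which is 0 or 1 count and below the floor. PFEIFFER exceeded the next line, WSUDLCL2, by 4.60 log2 units (SE 0.22, adjusted p = 3.51e-11, 58.6% of genes called).

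**Figure D1:**
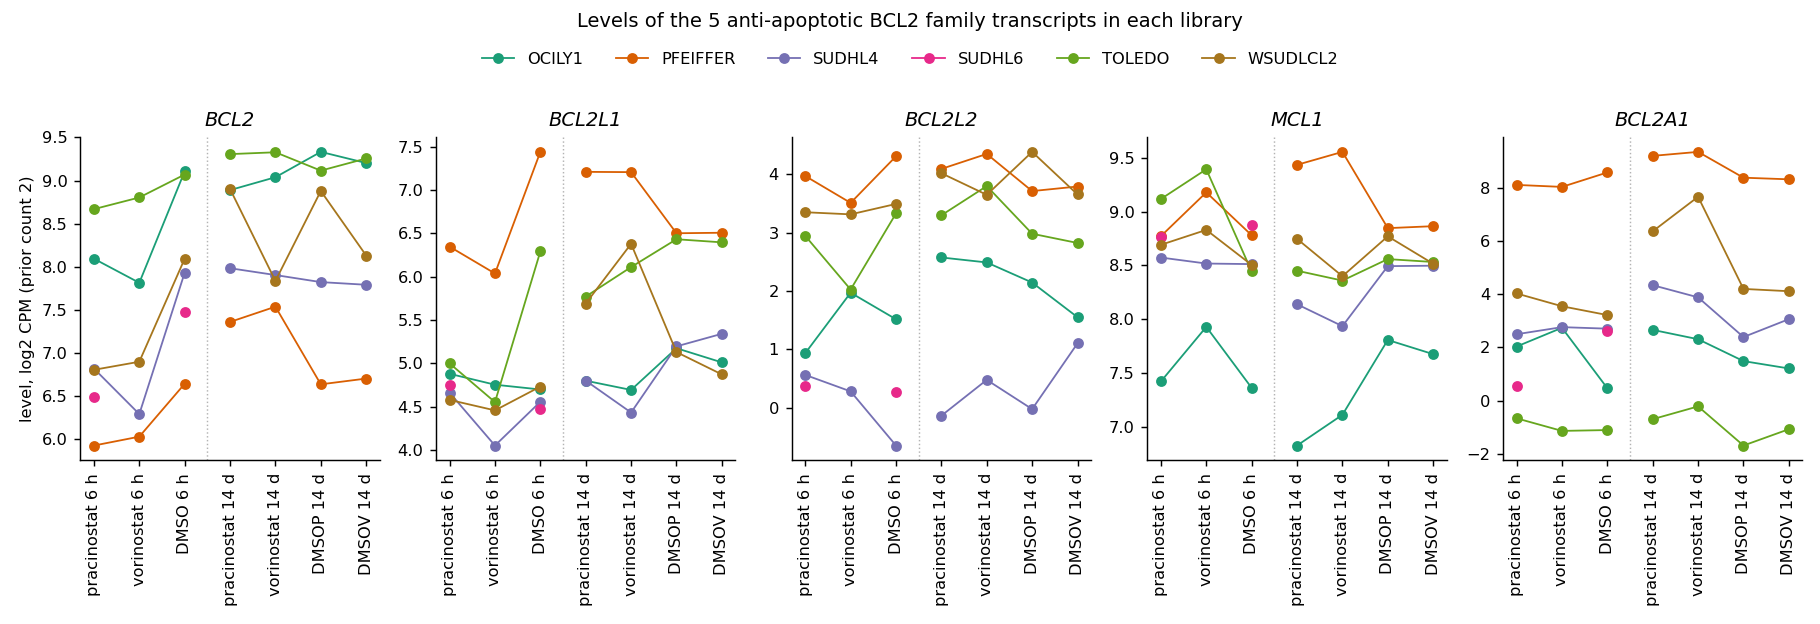
Level of each member in each of 37 libraries, as log2 CPM with a prior count of 2 on the y axis (the axis of each panel has its own range), by treatment and time on the x axis. Colours are lines, and segments join libraries of 1 line and time. BCL2 points at 6 h lie lower with either drug than in DMSO in every line, and BCL2A1 of PFEIFFER lies above all other lines throughout.

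BCL2 fell within 6 h of either drug. OCILY1 cells measured 273 CPM with pracinostat and 225 CPM with vorinostat, against 551 CPM in DMSO. SUDHL4 cells had 112 and 77.8 CPM with pracinostat and vorinostat, against 244 CPM in DMSO, and WSUDLCL2 cells 111 and 119 CPM, against 272 CPM in DMSO. In these lines the level with a drug was 0.320 to 0.495 times that in DMSO. SUDHL6 had 89.3 CPM with pracinostat, against 177 CPM in DMSO. PFEIFFER, with the lowest level to begin with, had 60.4 CPM with pracinostat and 64.9 CPM with vorinostat, against 99.4 CPM in DMSO. TOLEDO held most of its transcript, 406 and 446 CPM with pracinostat and vorinostat, against 537 CPM in DMSO.

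Levels of drug and DMSO libraries overlapped across lines, since the lines start far apart, but within a line the drug library was the lower one in 6 of 6 lines with pracinostat and in 5 of 5 with vorinostat. The log2 fold changes were -0.94 with pracinostat (SE 0.15, adjusted p = 0.000127) and -1.02 with vorinostat (SE 0.16, adjusted p = 9.66e-05), in tests that called 40.1% and 43.9% of all genes, 18.9% and 20.9% as lower. By size, they exceeded the absolute change of 85.2% and 83.5% of tested genes. Both drugs were set against the same DMSO libraries, so these are not 2 independent results. BCL2 was lower with either drug in the lines whose solvent library is headed DMSOP and in those headed DMSOV. The falls were smallest in the lines headed DMSOP, PFEIFFER (-0.72 with pracinostat, -0.61 with vorinostat) and TOLEDO (-0.40 and -0.27). In the lines headed DMSOV they were -0.99 to -1.29 with pracinostat and -1.20 to -1.64 with vorinostat. Line and solvent set cannot be told apart in this. Without the line as block, BCL2 was called with neither drug (adjusted p = 0.523 and 0.533). Markers of B lineage moved with it, their sum being 2220 to 3810 CPM with pracinostat and 1967 to 3457 with vorinostat, against 2853 to 7301 CPM in DMSO; their part in the result was not tested.

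At 14 days BCL2 stood near its solvent level. OCILY1 measured 474 CPM with pracinostat against 644 CPM in DMSOP, and 525 CPM with vorinostat against 589 CPM in DMSOV. SUDHL4 measured 252 CPM with pracinostat against 226 CPM in DMSOP and 239 CPM with vorinostat against 221 CPM in DMSOV, and TOLEDO 633 CPM with pracinostat against 554 CPM in DMSOP and 642 CPM with vorinostat against 611 CPM in DMSOV. PFEIFFER was above its solvent with both drugs, at 164 CPM with pracinostat against 99.0 CPM in DMSOP and 185 CPM with vorinostat against 104 CPM in DMSOV. In WSUDLCL2 the 2 arms differed more than drug and solvent did: pracinostat 478 and DMSOP 470.4 CPM, vorinostat 228 and DMSOV 279.7 CPM. The log2 fold changes were 0.14 with pracinostat (SE 0.20, adjusted p = 0.659) and 0.17 with vorinostat (SE 0.21, adjusted p = 0.538), and neither was called.

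The change of the effect between the times was itself called. The effect on BCL2 was 1.05 log2 units higher at 14 days than at 6 h with pracinostat (SE 0.26, adjusted p = 0.00512) and 1.15 higher with vorinostat (SE 0.27, adjusted p = 0.00265), where 19.4% and 23.4% of genes were called, 9.53% and 11.2% as higher. Both values stayed called with each line left out. In solvent alone BCL2 did not differ between 14 days and 6 h past the threshold (0.14, SE 0.10, adjusted p = 0.368), nor did any other member, while 23.3% of genes did.

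Taken singly, 2 lines had BCL2L1 called lower with the drugs at 6 h, PFEIFFER and TOLEDO, where 12.4% and 18.5% of genes were called. That fit takes the 2 drug libraries of a line as repeats against its 1 DMSO library. Its test of a difference between lines missed the threshold (adjusted p = 0.0649). PFEIFFER had 81.0 CPM with pracinostat and 65.3 CPM with vorinostat, against 173 CPM in DMSO. That single solvent library, on which the fall in PFEIFFER rests, was well above the DMSOP (90.2 CPM) and DMSOV (90.6 CPM) libraries of this line at 14 days. TOLEDO had 31.7 and 23.1 CPM with pracinostat and vorinostat, against 77.9 CPM in DMSO. These are the lines that carry most of this transcript without drug, and also those whose 6 h solvent library is headed DMSOP, so line and solvent set cannot be told apart here. OCILY1, SUDHL4, SUDHL6 and WSUDLCL2 measured 23.6 to 29.1 CPM with pracinostat and, without SUDHL6, 16.3 to 26.6 CPM with vorinostat, against 21.8 to 26.2 CPM in DMSO, ranges that overlap. BCL2L1 fell with vorinostat (log2 fold change -0.79, SE 0.24, adjusted p = 0.0133), a call that was lost without PFEIFFER (adjusted p = 0.0732) or TOLEDO (0.0599). With pracinostat its fold change was -0.40 (SE 0.22, adjusted p = 0.165).

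At 14 days BCL2L1 moved in opposite directions. In WSUDLCL2 it measured 51.3 CPM with pracinostat against 34.7 CPM in DMSOP, and 82.9 CPM with vorinostat against 29.0 CPM in DMSOV. In PFEIFFER it was 148 CPM with pracinostat and 147 CPM with vorinostat, against 90.2 CPM in DMSOP and 90.6 CPM in DMSOV. The 6 h DMSO library of that line had measured 173 CPM. In OCILY1, SUDHL4 and TOLEDO each of the 6 drug libraries was below its own solvent library. Over all lines the fold changes were -0.01 with pracinostat and 0.21 with vorinostat, neither called.

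MCL1 rose with vorinostat at 6 h, by 0.41 log2 units (SE 0.13, adjusted p = 0.0134), where 23.1% of all genes rose. TOLEDO measured 555 CPM with pracinostat and 673 CPM with vorinostat, against 348 CPM in DMSO. OCILY1 had 171 and 243 CPM, against 164 CPM in DMSO, and PFEIFFER 437 and 579.5 CPM, against 439 CPM in DMSO. WSUDLCL2 had 413 and 455 CPM, against 363 CPM in DMSO, and SUDHL4 381 and 366 CPM, against 365 CPM in DMSO. All 5 vorinostat libraries thus lay above DMSO, SUDHL4 by 0.01 log2 units. The call was lost without OCILY1 (adjusted p = 0.0535) or TOLEDO (0.0591). With pracinostat the fold change was 0.14 (SE 0.12, adjusted p = 0.374), with 4 of 6 lines higher.

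After 14 days MCL1 had fold changes of -0.15 with pracinostat and -0.11 with vorinostat, neither called, over lines that disagreed. PFEIFFER had 692 CPM with pracinostat and 753 CPM with vorinostat, against 460.1 CPM in DMSOP and 466 CPM in DMSOV. OCILY1 had 113 and 138 CPM, against 224 and 204 CPM in DMSOP and DMSOV. The other 3 lines lay at or below their solvent, with 281 to 429 CPM with pracinostat and 244 to 337 CPM with vorinostat, against 360.0 to 436 CPM in DMSOP and 361 to 369.8 CPM in DMSOV.

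BCL2L2 was called with neither drug at either time. Its fold changes were -0.22 (SE 0.27) with pracinostat and -0.42 (SE 0.28) with vorinostat at 6 h, and 0.14 (SE 0.28) and 0.52 (SE 0.29) at 14 days. TOLEDO showed the widest swing of the lines with more than 8 counts per library, 7.39 CPM with pracinostat and 3.76 CPM with vorinostat at 6 h, against 9.74 CPM in DMSO.

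BCL2A1 rose over 14 days with both drugs. WSUDLCL2 measured 81.7 CPM with pracinostat against 18.0 CPM in DMSOP, and 201 CPM with vorinostat against 17.0 CPM in DMSOV. PFEIFFER, already the highest, reached 584 CPM with pracinostat against 331 CPM in DMSOP and 648 CPM with vorinostat against 317 CPM in DMSOV. SUDHL4 had 19.9 CPM with pracinostat against 4.93 CPM in DMSOP, and 14.4 CPM with vorinostat against 8.04 CPM in DMSOV, which rest on 40 and 35 counts with vorinostat and in DMSOV. In OCILY1 the gene had 6.01 and 4.64 CPM with pracinostat and vorinostat, against 2.49 and 2.00 CPM in DMSOP and DMSOV. TOLEDO held 2 and 3 counts with the drugs, against 0 and 1 in the solvents, at or below the floor.

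Every drug library of the other 4 lines was thus above its solvent library, by 1.76 to 4.47-fold with pracinostat and 1.76 to 11.7-fold with vorinostat on the scale with a prior count of 2. The log2 fold changes were 1.55 with pracinostat (SE 0.38, adjusted p = 0.0101) and 1.87 with vorinostat (SE 0.39, adjusted p = 0.00198), in tests that called 22.6% and 37.6% of genes, 12.3% and 20.4% as higher. Without SUDHL4 the pracinostat call was lost (adjusted p = 0.0547), and without the line as block neither was called (adjusted p = 0.989 and 0.809). BCL2A1 was the one member called with either drug at this time.

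At 6 h BCL2A1 had no common direction. OCILY1 had 3.78 CPM with pracinostat and 6.36 CPM with vorinostat, against 1.07 CPM in DMSO. SUDHL6 had 1.15 CPM with pracinostat, 7 counts, against 5.90 CPM and 53 counts in DMSO. PFEIFFER had 274 and 260.3 CPM, against 379 CPM in DMSO. The fold changes over lines were -0.12 with pracinostat (adjusted p = 0.813) and 0.05 with vorinostat (adjusted p = 0.929). The effect was higher at 14 days than at 6 h by 1.63 log2 units with pracinostat (SE 0.56, adjusted p = 0.0419) and by 1.78 with vorinostat (SE 0.59, adjusted p = 0.0314). Leaving out PFEIFFER, SUDHL4 or TOLEDO ended both calls, leaving out SUDHL6 that of pracinostat (adjusted p = 0.102) and leaving out WSUDLCL2 that of vorinostat (0.201).

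Several measures of the libraries moved with the 14 day result. The sum of the myeloid markers ITGAM, CSF1R and CD33, a lineage that also uses BCL2A1, was 0.77 to 19.6 CPM with pracinostat against 0 to 1.57 CPM in DMSOP, and 1.10 to 37.0 CPM with vorinostat against 0 to 1.66 CPM in DMSOV. With vorinostat the sum was 37.0 CPM in WSUDLCL2, 22.3 in SUDHL4, 16.0 in PFEIFFER, 1.49 in OCILY1 and 1.10 in TOLEDO, and BCL2A1 differed from DMSOV by 3.54, 0.82, 1.03, 1.10 and 0.86 log2 units in these lines. With vorinostat WSUDLCL2 was highest in both, and the other lines were not in the same order. With pracinostat the sum was 19.6 CPM in PFEIFFER, 17.7 in SUDHL4, 13.9 in WSUDLCL2, 5.05 in OCILY1 and 0.77 in TOLEDO. BCL2A1 differed from DMSOP by 0.82, 1.95, 2.16, 1.17 and 0.99 log2 units in these lines. PFEIFFER thus had the highest sum and the smallest difference with this drug. The difference in TOLEDO rests on 3 counts against 1 with vorinostat and 2 against 0 with pracinostat. CD14, LYZ, MPO, S100A8 and S100A9 were not analysed here. COL1A1 and PECAM1 together reached 85.1 CPM with pracinostat against 20.7 CPM in DMSOP, and 62.3 CPM with vorinostat against 21.8 CPM in DMSOV. The epithelial sum reached 104 CPM with pracinostat against 282 CPM in DMSOP, and 92.9 CPM with vorinostat against 278 CPM in DMSOV. Mitochondrial genes took 11.1 to 17.0% of counts with pracinostat and 10.5 to 17.5% with vorinostat, against 6.45 to 11.0% in DMSOP and 6.76 to 12.0% in DMSOV. The sum of 6 cell cycle genes, MKI67 among them, was 489.8 to 1921 CPM with pracinostat and 149.6 to 1227 CPM with vorinostat, against 2004 to 3560.1 CPM in DMSOP and 2040.4 to 3942 CPM in DMSOV. The part of these in the result was not tested.

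**Figure D2:**
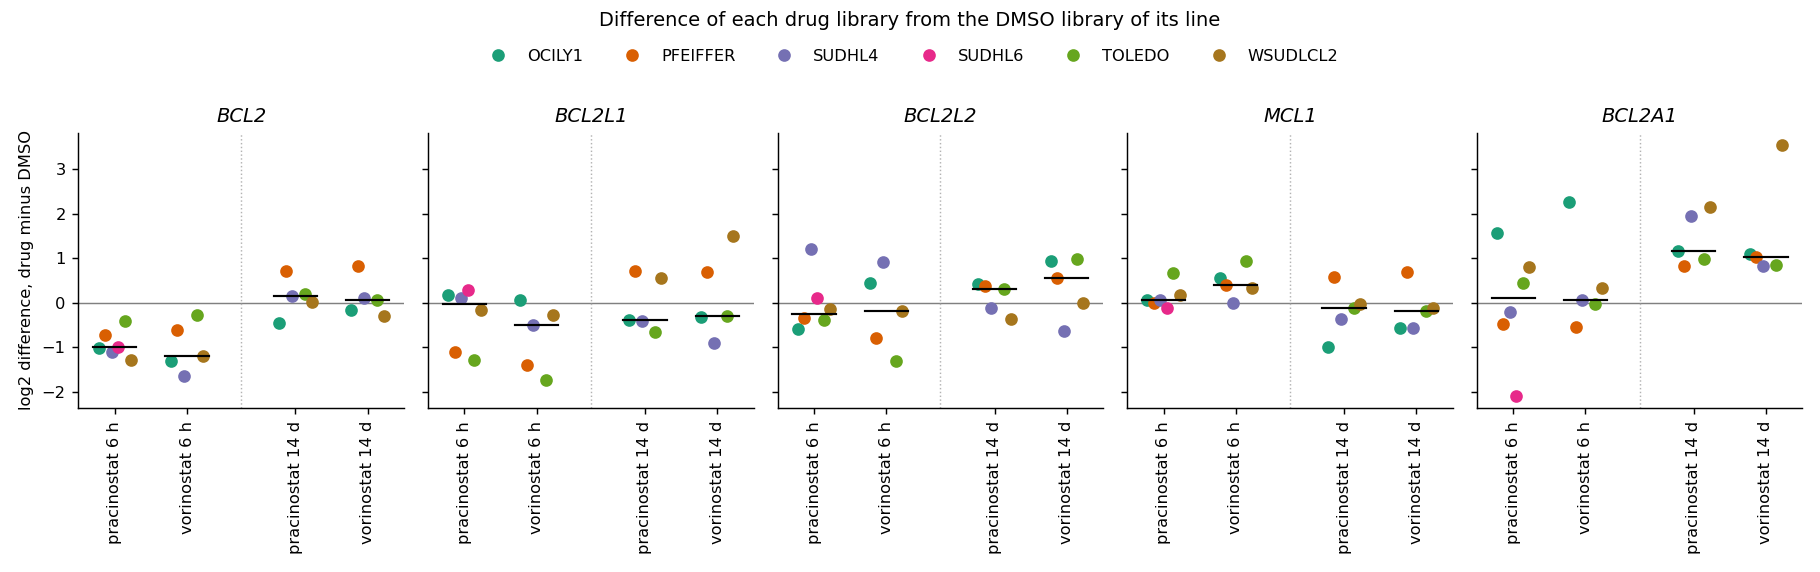
Log2 difference of each drug library from the DMSO library of the same line and time on the y axis (prior count of 2), with DMSOP for pracinostat and DMSOV for vorinostat at 14 days. Points are lines and black bars medians over lines. BCL2 lies below 0 in all lines at 6 h, and BCL2A1 lies above 0 in all lines at 14 days with medians of 1.17 and 1.03, where the points of TOLEDO rest on at most 3 counts.

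Pracinostat and vorinostat were compared directly at each time, 10 comparisons for the 5 members, with p-values adjusted over all genes. None was called, where 0.0152% of genes were called at 6 h and 0% at 14 days. Intervals (95%) were taken from the SE with a normal distribution, so they are somewhat too narrow for so few libraries. The interval of the difference for BCL2 ran from -0.23 to 0.38 at 6 h and from -0.27 to 0.53 at 14 days. For BCL2L1 at 6 h the difference was 0.39 (interval -0.07 to 0.86, adjusted p = 0.622) and for MCL1 -0.28 (interval -0.52 to -0.04, adjusted p = 0.519). The widest interval was that of BCL2A1 at 14 days, -1.09 to 0.32. These limits do not show that the drugs act alike, and doses are unknown. DMSOP and DMSOV differed in none of the members past the threshold, with 0% of genes called, but single lines differed by up to 0.75 log2 units for BCL2, 0.26 for BCL2L1 and 0.25 for MCL1, in WSUDLCL2, and by up to 1.13 for BCL2L2 and 0.67 for BCL2A1, in SUDHL4.

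To see whether the lines differed in their response, both drugs were taken as repeats of 1 condition in each line, and DMSOP and DMSOV as repeats of the solvent at 14 days, a test chosen after the values were seen. At 6 h each line has 1 DMSO library, and SUDHL6 has 1 drug library, so a line's lone libraries are assumed to vary like those of the drug pairs in the other lines. At 6 h the line-by-drug term was called for BCL2A1 alone among the members (adjusted p = 0.0216), where 2.52% of genes were called. BCL2A1 rose in OCILY1 (2.18, SE 0.49, adjusted p = 0.00715) and fell in SUDHL6 (-2.33, SE 0.53, adjusted p = 0.0225), lines in which 19.2% and 5.56% of genes were called. These values rest on 26 and 37 counts with pracinostat and vorinostat against 8 in DMSO in OCILY1, and on 7 with pracinostat against 53 in DMSO in SUDHL6. The call of the term was lost without OCILY1 (0.117), PFEIFFER (0.116) or SUDHL6 (0.0664). For BCL2L1, whose term missed the threshold, the fitted values were lowest in PFEIFFER (-1.27, SE 0.26) and TOLEDO (-1.48, SE 0.27), both called, in lines where 12.4% and 18.5% of genes were called. For BCL2 (0.370) and MCL1 (0.632) it was not called either. Taken singly, BCL2 fell in SUDHL4 (-1.36, SE 0.23), WSUDLCL2 (-1.25, SE 0.23) and OCILY1 (-1.17, SE 0.23), and 13.4%, 15.3% and 19.2% of genes were called in these lines. Its values in SUDHL6 (-0.99), PFEIFFER (-0.69) and TOLEDO (-0.30) were not called, and MCL1 rose in TOLEDO alone (0.85, SE 0.26, adjusted p = 0.0345).

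At 14 days the term was called for BCL2L1 (adjusted p = 0.000864), MCL1 (0.00511) and BCL2A1 (0.0125), where 19.5% of all genes were called. BCL2L1 rose in WSUDLCL2 (1.08, SE 0.21) and PFEIFFER (0.71, SE 0.20), and had values of -0.35 to -0.57, not called, in OCILY1, SUDHL4 and TOLEDO. MCL1 rose in PFEIFFER (0.64, SE 0.17) and fell in OCILY1 (-0.77, SE 0.18). BCL2A1 rose in WSUDLCL2 (3.01, SE 0.31), SUDHL4 (1.49, SE 0.38) and PFEIFFER (0.93, SE 0.28). In these lines, OCILY1, PFEIFFER, SUDHL4 and WSUDLCL2, 21.6%, 31.1%, 28.7% and 21.3% of genes were called, and in TOLEDO, where no member was called, 24.4%. The term for BCL2L1 stayed called with each line left out, that for MCL1 was lost without OCILY1 (0.102) or PFEIFFER (0.229), and that for BCL2A1 without PFEIFFER (0.127) or WSUDLCL2 (0.361). PFEIFFER was the one line in which 4 members were called higher at 14 days, BCL2 included (0.78, SE 0.27, adjusted p = 0.0346).

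**Figure D3:**
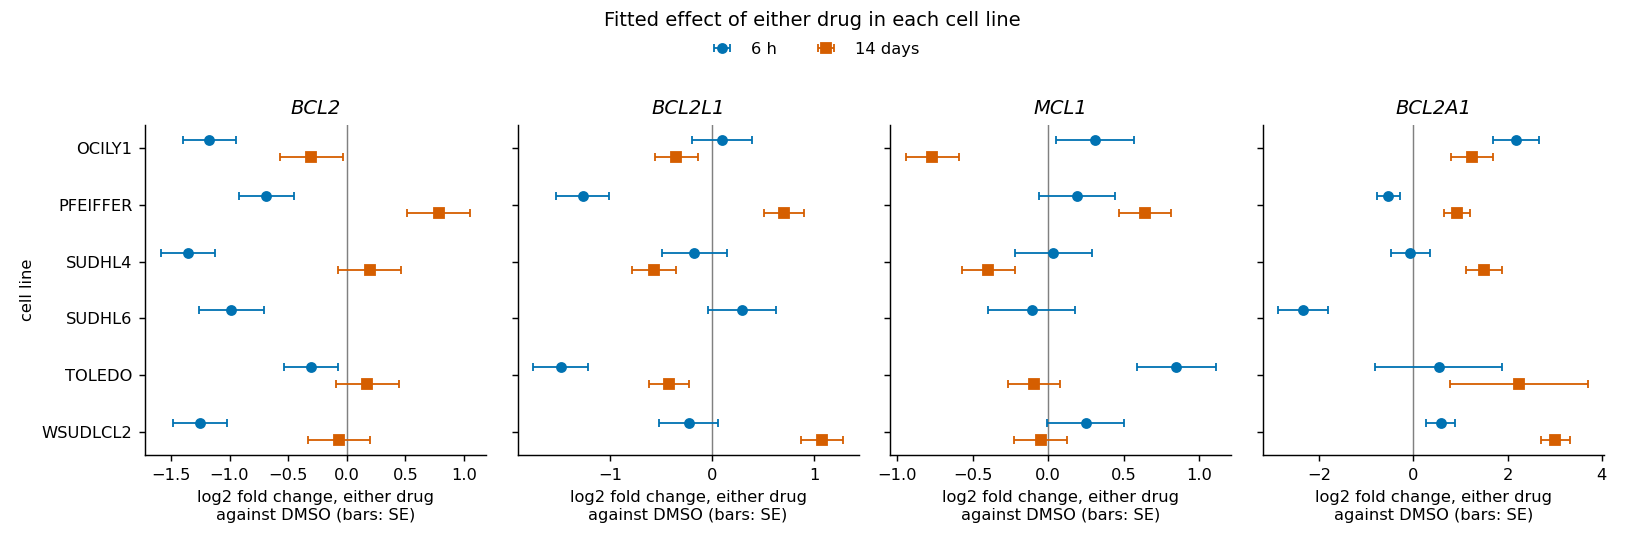
Fitted log2 fold change of either drug against DMSO on the x axis, by line on the y axis, at 6 h (circles) and at 14 days (squares), with bars of 1 SE. BCL2L1 and MCL1 of PFEIFFER and OCILY1 lie on opposite sides of 0 at 14 days, and BCL2 lies left of 0 in every line at 6 h.

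Levels per length were used to compare the 5 transcripts within a library. CPM were divided by the exonic kilobases of each gene, from 1.089 for BCL2A1 to 11.765 for BCL2, taken over all annotated exons, so a gene with long rarely used exons is understated. MCL1 led in 24 of 37 libraries, BCL2A1 in 8 and BCL2 in 5. In DMSO, MCL1 made up 79.7% of the summed CPM per kilobase in SUDHL6, 69.9% in SUDHL4 on average, 62.2% in WSUDLCL2 and 52.6% in TOLEDO. OCILY1 was led by BCL2 with 47.2%, MCL1 having 41.9%. PFEIFFER was led by BCL2A1 with 67.4%, and its sum of 466 CPM per kilobase was the highest, against 107 to 159 in the other lines.

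At 6 h the share of BCL2 was lower with the drug than in DMSO in 6 of 6 lines with pracinostat and 5 of 5 with vorinostat, and that of MCL1 was higher in each. In OCILY1 BCL2 took 30.9% with pracinostat and 21.3% with vorinostat, against 50.0% in DMSO, and MCL1 became the leading transcript with 52.2% and 62.2%, against 40.1% in DMSO. The ratio of drug to DMSO for the sum over the 5 genes lay between 0.749 and 1.15 with pracinostat and between 0.777 and 1.32 with vorinostat. It was lowest in PFEIFFER and highest in TOLEDO with each drug. At 14 days WSUDLCL2 changed most. BCL2A1 took 32.2% with pracinostat against 9.64% in DMSOP, and 59.8% with vorinostat against 11.6% in DMSOV, where MCL1 held 25.0% against 62.1%. The sum in that line was 1.36 times that of DMSOP with pracinostat and 2.30 times that of DMSOV with vorinostat. In PFEIFFER it was 1.69 and 1.90 times, and in the other 3 lines 0.677 to 0.961 times. These shares are descriptions, with no test.

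**Figure D4:**
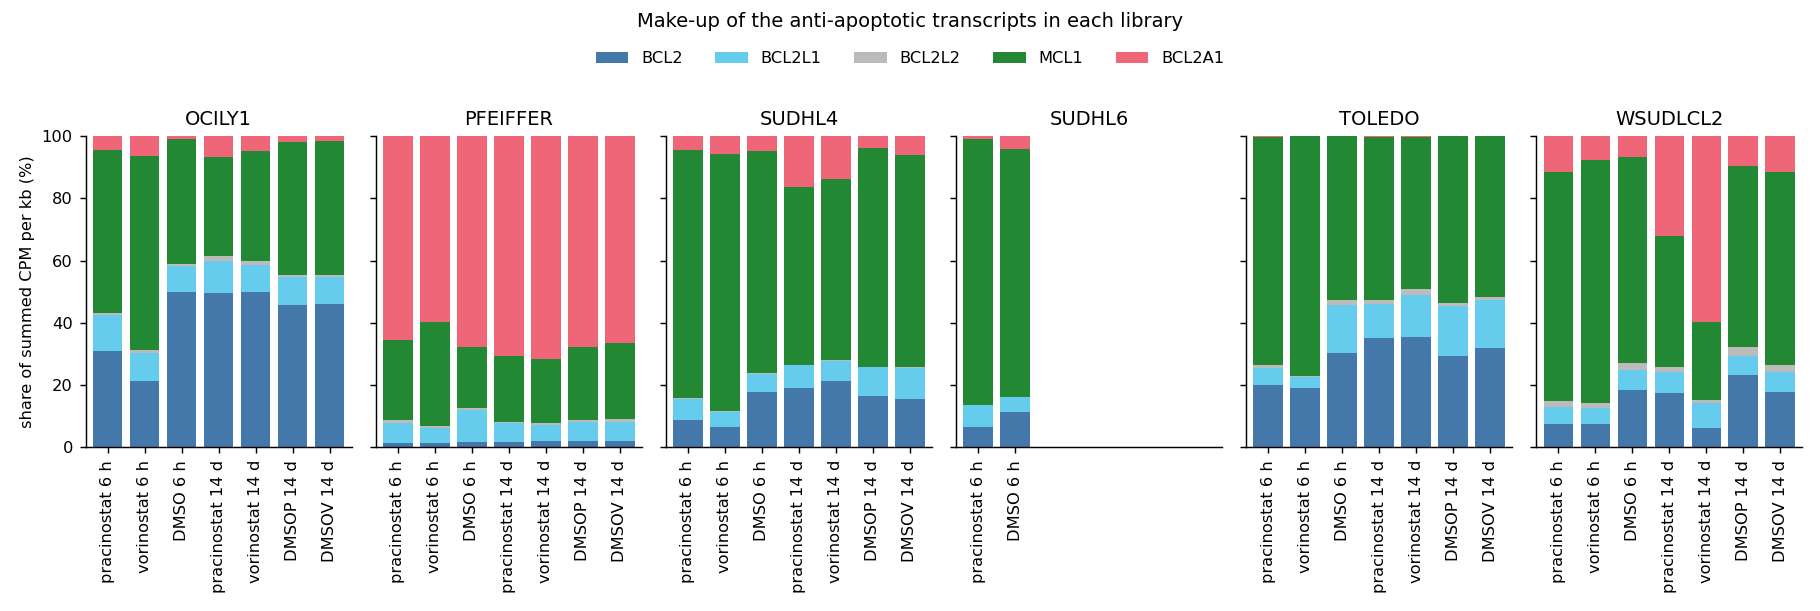
Share of each member in the summed CPM per kilobase of the 5 genes (y axis, percent) in each library (x axis), 1 panel per line. MCL1 is the largest part of each bar in SUDHL4, SUDHL6 and TOLEDO, and BCL2A1 in PFEIFFER, and BCL2A1 grows to 59.8% in WSUDLCL2 with vorinostat at 14 days.

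The partners of these proteins are described by the count called in each direction and by their median, to be read beside all genes. Of these 21.2% rose and 18.9% fell at 6 h with pracinostat (vorinostat 23.1% and 20.9%), and at 14 days 12.3% and 10.2% (vorinostat 20.4% and 17.2%). Of 12 effectors and BH3-only genes 10 were tested. At 6 h pracinostat raised 1 and lowered 2, while vorinostat raised 4 and lowered 2, medians being 0.06 and 0.38 beside 0.03 and 0.02 over all genes. BAK1, an effector, rose by 0.71 and 0.79, while the effector BAX (-0.62 and -0.52) and BID (-0.88 and -1.05), a BH3-only gene cut by caspase, fell with pracinostat and vorinostat. BBC3 rose with vorinostat (1.36), its 0.91 with pracinostat not being called. At 14 days pracinostat raised 2 and lowered 1, while vorinostat raised 4 and lowered 0, medians 0.38 and 0.66 beside 0.07 and 0.12. BMF, a BH3-only gene, rose by 1.50 with pracinostat and 2.27 with vorinostat. BIK rose with pracinostat (1.38) and BBC3 with vorinostat (1.81), and BID fell with pracinostat (-0.62). With the other drug BIK had 0.83, BBC3 0.50 and BID -0.53, none called.

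Of the regulators of MCL1 protein turnover, 2 of 9 tested genes rose and 1 fell at 6 h under each drug, shares near those of all genes. FBXW7, which marks MCL1 for destruction, rose by 0.54 with pracinostat and 0.87 with vorinostat. Of the enzymes that take ubiquitin off MCL1, USP9X rose (0.35 and 0.49) and USP13 fell (-0.54 and -0.65). At 14 days none of them rose, pracinostat lowering 2 and vorinostat 5. Among them were USP13 (-1.16 and -1.60), PPP2CA, a phosphatase subunit (-0.52 and -0.41), and HUWE1, a ubiquitin ligase of MCL1 (-0.50 with vorinostat, and -0.18, not called, with pracinostat).

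Of 20 transcription factors known to act on BCL2 or MCL1, 19 were tested, and each drug raised 1 and lowered 8 at 6 h, medians -0.39 and -0.35. STAT3 was the riser (0.87 and 1.31). The falls included MYC, a driver of growth genes (-1.07 and -1.01), POU2F2, the B-cell octamer factor (-0.99 and -0.88), and MEF2B with pracinostat (-1.11), its value with vorinostat being -0.49 and not called. At 14 days each drug raised 1, and 4 were lowered by pracinostat and 5 by vorinostat, medians 0.07 and 0.04. E2F1, a cell cycle factor, fell (-1.22 and -1.35), as did POU2F1 (-0.82 and -1.04). PAX5, the B-cell identity factor, rose with pracinostat (0.55) and POU2F2 with vorinostat (0.77), their values with the other drug, 0.39 and 0.52, not being called.

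NF-kB genes were followed because BCL2A1 is a target of that factor, and 16 of 18 were tested. At 6 h 3 were higher and 2 lower under pracinostat, 4 and 3 under vorinostat, medians -0.13 and -0.12. BIRC3 (0.87 and 0.59) and NFKBIZ (0.65 and 0.97) rose with pracinostat and vorinostat, while NFKB1 (-0.66 and -0.93) and NFKBIA (-0.66 and -0.81), an inhibitor of the factor, fell with both. CD83 (0.77) rose and RELB (-0.83) fell with vorinostat, their values with pracinostat, 0.36 and -0.70, not being called. At 14 days the counts were 2 higher and 1 lower under pracinostat, 4 and 1 under vorinostat, medians 0.02 and 0.50. EBI3, a cytokine subunit, rose by 2.19 and 2.60, TRAF1, a signalling adaptor, by 1.59 and 2.01, while the subunit gene NFKB1 fell (-0.44 and -0.70). The mean level of EBI3 was low in the 6 h fit, at 0.33 log2 CPM.

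Of 15 other inhibitors of apoptosis 14 were tested, 4 being raised and 4 lowered by pracinostat at 6 h, and 4 and 6 by vorinostat. BAG3, a co-chaperone, rose by 1.50 and 1.44, and BIRC3 by 0.87 and 0.59. AVEN, which binds BCL-XL, fell (-1.74 and -1.65), as did FAIM, an inhibitor of Fas signalling (-1.31 and -2.10). At 14 days no rise was called, and 3 falls under pracinostat stood beside 5 under vorinostat. BIRC5, which encodes survivin, fell with both (-1.50 and -1.80), as did AVEN (-0.79 and -1.18), and FAIM fell with vorinostat (-1.28), its -0.46 with pracinostat not being called. Of 9 further family members 8 were tested at 6 h, with 2 rises and 3 falls under each drug. BCL2L12 rose (0.83 and 1.10) and so did BNIP3L, a mitophagy receptor (0.82 and 0.94), while BCLAF1 fell (-1.14 and -1.32), as did BNIP1 (-0.70 and -1.11). At 14 days, when 7 were tested, 0 rose and 3 fell under each drug, among them BCL2L12 (-0.77 and -0.71) and BCLAF1 (-0.42 and -0.84).

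The genes most like each member were listed by Pearson's r of log2 CPM over 37 libraries among 10187 genes with a mean of at least 2, points that share lines, depth and scaling. They were DGKA (0.863), PFKL and CDK16 for BCL2, CTSS (0.895), VPS54 and UNC13D for BCL2L1, and NME4 (0.918), GSTM2 and FES for BCL2L2. For MCL1 they were ZNF347 (0.853), BTN2A2 and CEP164, and for BCL2A1 CDKN2AIPNL (0.915), SERPINB1 and TRAF1 (0.900). Over the 21 differences of drug and DMSO, which share solvent libraries at 6 h, they were PSMA3-AS1 (0.932), ASB2 and CIRBP for BCL2, CPPED1 (0.858), ADO and VOPP1 for BCL2L1, and VPS25 (0.770), ADAL and RPP38 for BCL2L2. For MCL1 they were TSPYL2 (0.852), MACO1 and PELI1, and for BCL2A1 COBLL1 (0.816), SNX20 and RNF141. Among the members themselves, levels of BCL2 and BCL2A1 ran most against each other (r = -0.640) and those of BCL2L1 and BCL2L2 most together (0.662).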

How the data were processed

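Per the labels' protocols, Trizol served to extract RNA, of which 1 µg went into each TruSeq library. The submitters' processing notes name STAR, edgeR and the build hg38; versions, annotation and strand setting were not given in the sources used here. The deposited counts are raw reads per gene of 37 libraries, all pairs of which differed, out of 38 listed samples, 1 of 2 SUDHL4 samples of vorinostat at 14 days having no column. The count column was assigned to the other by its label, while the log2 column fits both titles. The deposited log2 values proved equal to log2 CPM on TMM scaling with a prior count of 0.25, the largest gap being 4.99e-06.

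Identifiers were matched to GENCODE 29 without version, which left 152 unmatched. Counts were tested in edgeR 4.0.16 (R 4.3.3) with TMM factors, filterByExpr (minimum count 10, minimum total 15) and robust quasi-likelihood fits. The line was the block, since the groups of a comparison hold the same lines, apart from SUDHL6, which lacks vorinostat at 6 h and all of 14 days. Each time was fitted apart. The change between times was an interaction in 1 fit of all libraries, and lines in DMSO were compared by an F test and pairwise contrasts. P-values were Benjamini-Hochberg adjusted over all genes. They measure the spread between libraries, which may be technical in part. The pipeline was tested on simulated data. DESeq2 1.42.0, limma 3.58.1 on the deposited log2 values, library totals, no filter, other DMSO sets and each line left out were alternatives.

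The text names the members whatever their values, the 3 genes most like each, and up to 2 called rises and 2 called falls of each of 6 pathway lists per drug comparison. Members and lists were chosen with earlier results of these data known. The test of lines by drug and its alternatives were added after seeing the data.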

Additional observations from a re-analysis of the deposited data

Results flagged for a closer look

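Single lines stood apart from the rest of their group in 11 of 55 groups of 5 or 6 values examined, and most were PFEIFFER. Chance alone gives about 1 in 20 for independent groups. These groups repeat the same lines and genes, so the 11 are not independent results and cannot be set against that rate. Its BCL2L1 was far above the other lines at 6 h with pracinostat (81.0 CPM, others 23.6 to 31.7), with vorinostat (65.3 CPM, others 16.3 to 26.6) and in DMSO (173 CPM, others 21.8 to 77.9), and with pracinostat at 14 days (148 CPM, others 27.5 to 54.2). Its BCL2A1 stood apart in 6 groups, at 6 h with pracinostat (274 CPM, others up to 16.0), vorinostat (260.3 CPM, others up to 11.4) and DMSO (379 CPM, others up to 8.98), and at 14 days with pracinostat (584 CPM, others up to 81.7), in DMSOP (331 CPM, others up to 18.0) and in DMSOV (317 CPM, others up to 17.0). The remaining one was WSUDLCL2 with vorinostat at 14 days, whose BCL2A1 exceeded DMSOV by 3.54 log2 units, the other lines by 0.82 to 1.10.

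The effect of a drug differed between 14 days and 6 h, by the interaction test, for BCL2 with pracinostat (1.05 log2 units, adjusted p = 0.00512 in edgeR) and vorinostat (1.15, adjusted p = 0.00265), and for BCL2A1 with pracinostat (1.63, adjusted p = 0.0419) and vorinostat (1.78, adjusted p = 0.0314).

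The effect of either drug differed between lines, by edgeR's test of the line-by-drug terms, for BCL2A1 at 6 h (adjusted p = 0.0216) and at 14 days for MCL1 (0.00511), BCL2A1 (0.0125) and BCL2L1 (0.000864).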

How the results depend on the processing

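Of 563 recomputed values of the members 494 kept their direction and their side of the threshold, 21 fell short of it, 6 passed it and 42 changed sign, none of these being called before or after. All 112 recomputed values of called members kept their sign. BCL2 stayed called at 6 h with both drugs under every alternative but the fit without the block. Without the line as replicate block, 0 members were called with pracinostat or vorinostat at 6 h or at 14 days (BCL2 at 6 h -0.83 and -0.75), and 577 genes in all with pracinostat at 6 h against 5289 in the paired fit. Why was not tested. Scaling by library totals moved the median of all genes at 6 h with pracinostat to 0.13 from 0.03 and its split to 3556 higher and 1929 lower genes from 2794 and 2495. It gave 1499 and 1727 with pracinostat and 2308 and 2931 with vorinostat at 14 days, against 1733 and 1434 and against 2864 and 2410. There BCL2 at 6 h was -0.83 and -0.93, and BCL2A1 at 14 days 1.48 and 1.79.

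The change of pracinostat's effect over time was called in 1 member in place of 2 under library totals and without a filter, BCL2A1 missing the threshold. With each line left out in turn, the number of members called ranged between 0 and 1 for pracinostat against DMSOP at 14 days and for DMSO over time, and between 1 and 3 for vorinostat at 6 h. It ranged between 1 and 2 for the effect of pracinostat over time, between 1 and 3 for that of vorinostat, between 0 and 2 for lines by drug at 6 h (2 also without a filter) and between 1 and 3 at 14 days. The causes were not tested.

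Sign changes with a line left out gave these log2 ranges. For pracinostat at 6 h BCL2A1 had -0.40 to 0.18, and for vorinostat -0.31 to 0.47. For pracinostat at 14 days BCL2L1 had -0.21 to 0.12 and MCL1 -0.32 to 0.042. For vorinostat at 14 days BCL2 had -0.012 to 0.25, BCL2L1 -0.16 to 0.42 and MCL1 -0.32 to 0.0015. For pracinostat against vorinostat BCL2 had -0.026 to 0.16 and BCL2L2 -0.0091 to 0.47 at 6 h, and at 14 days BCL2 -0.055 to 0.23, BCL2L1 -0.24 to 0.022, MCL1 -0.012 to 0.11 and BCL2A1 -0.59 to 0.17. For DMSOP against DMSOV BCL2L2 had -0.019 to 0.39 and BCL2A1 -0.18 to 0.10. For DMSO at 14 days against 6 h BCL2L1 had -0.10 to 0.36, BCL2L2 -0.23 to 0.22 and BCL2A1 -0.079 to 0.69.

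Other sign changes, again of uncalled values, were as follows. Without the block BCL2A1 had -0.25 with vorinostat at 6 h and 0.056 between DMSOP and DMSOV, and BCL2 -0.082 between the drugs at 6 h. At 14 days BCL2L1 had 0.14 and MCL1 0.025 with pracinostat, and MCL1 0.048 with vorinostat, while over time in DMSO BCL2L1 had -0.059 and BCL2L2 0.17. DESeq2 gave BCL2L1 0.014 with pracinostat at 14 days and BCL2L2 0.036 over time in DMSO, and limma gave BCL2L2 0.068 and BCL2A1 0.099 with pracinostat at 6 h. The mean of both DMSO sets gave BCL2L1 0.012 with pracinostat. Each drug against its own DMSO gave -0.030 for BCL2 and -0.036 for MCL1 between the drugs at 14 days. DMSOP alone gave BCL2L2 0.13 and DMSOV alone BCL2L1 -0.0034 over time in DMSO.

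Depth limits BCL2A1 in TOLEDO and BCL2L2 in SUDHL4 and SUDHL6, at 0 to 8 counts in DMSO. One library per line, drug and time means that drug, library and culture of a line cannot be told apart. In most tests the spread is that between lines. In the tests of lines by drug it is that between libraries of a line under different drugs or solvent sets. In the comparison of lines in DMSO it is that between solvent libraries of a line, which differ in time or set.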
